A study of Mus musculus with 6 samples.

Results

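Melanocyte pigment genes and their regulators were followed in RNA-seq libraries of mouse hair follicle stem cells (HFSCs). The genes were Tyr, Tyrp1, Dct, Pmel, Mlana, Oca2 and Slc45a2, which build the pigment and its organelle, and the regulators Mitf, Sox10 and Kit. They were chosen by gene symbol, and these 10 genes are rows of a count table of 56941 genes. All 10 passed the filter on low counts, which left 32149 genes for testing.

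The libraries came from dorsal skin of female mice at postnatal day (PD) 68, strain B6;129S4-Dab2tm1Cpr/J, with 3 biological replicates per genotype, and the study staged the follicles of both genotypes as resting (telogen) at this age. All mice were Dab2fl/fl and received tamoxifen intraperitoneally. The WT mice lacked the Cre transgene (K14CreER-/-), and the Dab2-cKO mice carried it (K14CreER+/-). The K14 promoter is active in basal keratinocytes, so the deletion is directed at the epithelium and not at melanocytes, and the cells sequenced were sorted as CD34+/α6-integrin+, a gate for bulge keratinocytes. The 3 columns of the count table named for floxed alleles were taken as Dab2-cKO because the series title sets them against WT, although both genotypes are floxed. Dab2 itself, the deleted gene, was higher under this label. It had 339, 332 and 309 normalized counts under the WT label and 1434, 1300 and 1390 under the Dab2-cKO label, a log2 fold change of 2.08 (SE 0.08, edgeR adjusted p = 3.04e-34). A count over the whole gene does not separate the floxed exons from the rest, and the cause of the higher count was not tested. Every direction below refers to the library labels, and "under the WT label" or "under the Dab2-cKO label" stands for the 3 libraries of that label, replicates 1 to 3 in order.

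Pigment is made in melanocytes, cells of neural crest origin that sit in the hair follicle beside the keratinocytes they supply. Tyrosinase starts the pathway from tyrosine, the related enzymes Tyrp1 and Dct act on later intermediates, and all of them work inside the melanosome, whose fibrils are built from Pmel. Mitf is the transcription factor that switches these genes on, Sox10 acts upstream of Mitf, and Kit is the receptor through which the ligand Kitl supports the lineage. Melanocyte stem cells of the resting follicle are known to hold little pigment enzyme, and pigmented melanocytes are found in the bulb of the growing follicle.

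The 3 tyrosinase family genes are shown first by their promoters because all of them were lower under the Dab2-cKO label, by unequal amounts, and because the M-box, the motif through which Mitf binds pigment genes, can be looked for there. Promoter windows were taken from RefSeq (table of build GRCm38.p6), which held 6 of the 10 genes in 9 windows, and each window was matched to a single place in GRCm39. The 250 bases before each RefSeq transcription start were searched on both strands for TCATGTG and for the shorter CATGTG, which lies inside it. The longer motif was in the windows of Tyr, Tyrp1 and Dct, at 2 places in Dct, and in 3.25% of all 32851 windows of this length. The shorter one was found in addition in the window of Oca2, 186 to 181 bases before its start, and in 12.3% of all windows. In the GENCODE annotation, from which the gene coordinates below are taken, Tyrp1 and Oca2 start upstream of these RefSeq starts, so the sites of both lie inside the gene as given there. Neither motif was in the 3 windows of Mitf or the 2 of Kit, which says only that these letters are not in those bases. The 4 sites are shown 5′ to 3′ with the longer motif in capitals, each turned so that the motif reads as searched.
Tyr, chr7:87142725-87142753, minus strand, 22 to 16 bases before the start: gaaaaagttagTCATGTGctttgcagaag
Tyrp1, chr4:80752392-80752420, plus strand, 47 to 41 bases before the start: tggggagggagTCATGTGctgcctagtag
Dct, chr14:118289873-118289901, on the strand opposite to the gene, 232 to 226 bases before the start: ctttattgggcTCATGTGtcccagccaag
Dct, chr14:118289792-118289820, minus strand, 151 to 145 bases before the start: tgcacttagggTCATGTGctaacaaagag
The full windows of Tyr and Dct are given on the strand of the gene, ending at the base before the start, with the longer motif or its reverse complement in capitals.
Tyr, chr7:87142721-87142970, minus strand: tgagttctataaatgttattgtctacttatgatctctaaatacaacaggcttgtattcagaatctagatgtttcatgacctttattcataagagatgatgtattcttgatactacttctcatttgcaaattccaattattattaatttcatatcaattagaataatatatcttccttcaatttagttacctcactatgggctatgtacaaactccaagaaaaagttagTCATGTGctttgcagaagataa
Dct, chr14:118289659-118289908, minus strand: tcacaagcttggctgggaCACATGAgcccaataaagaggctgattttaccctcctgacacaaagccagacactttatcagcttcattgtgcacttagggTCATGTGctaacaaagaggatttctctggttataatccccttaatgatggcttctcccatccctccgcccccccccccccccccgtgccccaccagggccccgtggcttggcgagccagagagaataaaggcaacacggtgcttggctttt
The bases of the Tyr window were 28.8% G or C and those of the Dct window 54%. A match of letters is a description and not a measured binding site.

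The comparison of genotypes asked how the melanocyte genes differed between the sorted cells labelled Dab2-cKO and WT. All 7 pigment genes were lower under the Dab2-cKO label, as were Mitf and Kit, while the values of Sox10 overlapped between the labels. The pigment genes had log2 fold changes from −2.96 to −1.41 with a median of −1.99, and the regulators from −1.06 to 0.08 with a median of −0.97. The median over all genes tested was −0.02. In total 9 of the 10 genes were called lower at an edgeR adjusted p under 0.05, against 11.5% of all genes tested, and none was called higher, against 16.8%. Over all genes the share called lower was 17.3% with upper-quartile scaling and 34.7% with library size only, where again 9 of the 10 were called lower. No member was higher at an unadjusted p under 0.05 or by DESeq2. For the same 9 genes every library labelled Dab2-cKO lay below every library labelled WT, which was so for 17.7% of all genes. In these bulk samples fewer melanocytes and less RNA per melanocyte cannot be told apart.

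Tyr, the gene of the rate-limiting enzyme of pigment synthesis (chromosome 7, 87073979 to 87142720, GRCm39), had 401, 404 and 414 normalized counts under the WT label. Under the Dab2-cKO label it had 55.3, 36.8 and 64.0. The groups were far apart, and the mean in Dab2-cKO was 12.8% of that in WT (407 ± 7.02 against 52.1 ± 13.9, SD, n = 3 each). The log2 fold change was −2.96 (SE 0.14, edgeR adjusted p = 5.92e-29), the largest fall of the 10 genes. Its low side was close to the background, which was read from 1562 chemosensory receptor genes. The median receptor reached 4.90 normalized counts per kb of exon, and the 95th percentile was 11.7, and Tyr had 57.2 per kb under the WT label and 7.32 under the Dab2-cKO label. An even background over the exons of Tyr would give 34.8 normalized counts. With each library's own background taken off, the Tyr means were 373 under the WT label and 18.5 under the Dab2-cKO label. The log2 ratio of these means was −4.34. It depends on the receptor median taken as background, since 7.32 per kb lies below the receptors' 95th percentile.

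Tyrp1, the gene of a tyrosinase-related enzyme that also stabilizes tyrosinase (chromosome 4, 80752360 to 80769956), had 498, 423 and 420 normalized counts under the WT label. It had 114, 135 and 88.3 under the Dab2-cKO label. No values overlapped, and the level fell to 25.2% of that in WT, a log2 fold change of −1.99 (SE 0.12, edgeR adjusted p = 5.56e-23).

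Dct, dopachrome tautomerase (chromosome 14, 118250202 to 118289656), is the family member known to be present already in melanoblasts and melanocyte stem cells. It was the most abundant of the 7 pigment genes in every library, with 1206, 1367 and 1254 normalized counts under the WT label and 431, 468 and 459 under the Dab2-cKO label. The replicates were close together and the groups did not overlap. With 35.5% of the WT level left, the highest share among the 3 enzymes, its log2 fold change was −1.50 (SE 0.08, edgeR adjusted p = 8.03e-27).

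The 3 enzymes fell by unequal amounts. Per kb of exon, Tyr made up 12.9%, 13.0% and 13.9% of the summed tyrosinase family under the WT label and 6.41%, 3.92% and 7.63% under the Dab2-cKO label. Dct made up 46.8%, 52.9% and 50.7% in the former and 60.3%, 60.1% and 65.9% in the latter. The shares of Tyr and of Dct did not overlap between the groups, and those of Tyrp1 did (34.1% to 40.3% against 26.4% to 36.0%).

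**Figure D1:**
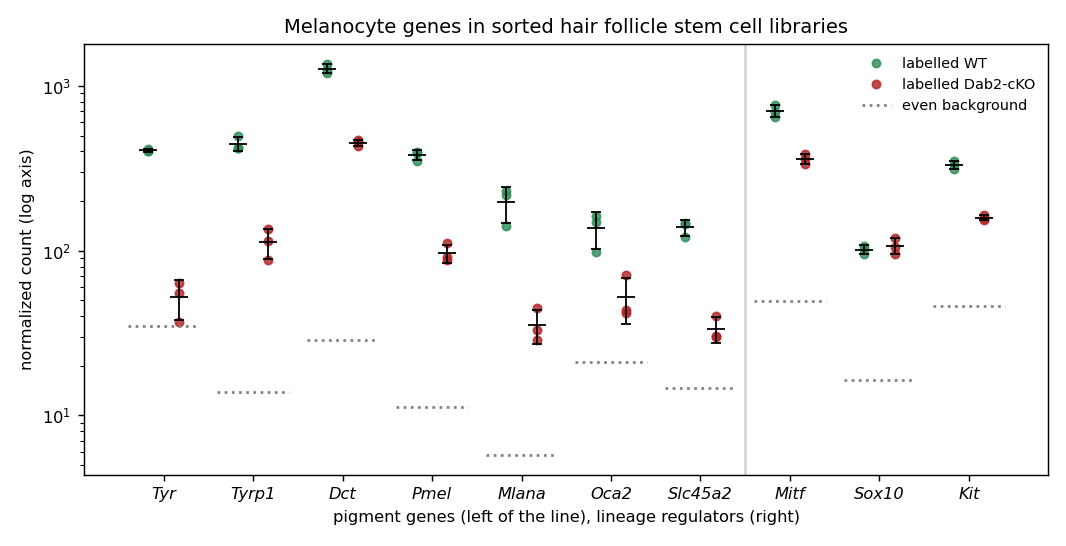
Normalized counts (log axis) of the 10 genes in the 3 libraries labelled WT (green) and the 3 labelled Dab2-cKO (red), with bars for the mean ± SD and a dotted line for the level an even background would give over the exons of each gene. The groups are apart for every gene but Sox10, and the red points of Tyr, between 36.8 and 64.0, lie next to its background of 34.8.

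Among the structural genes, Pmel, whose protein forms the fibrils on which pigment is laid down (chromosome 10, 128540064 to 128556107), had 351, 394 and 399 normalized counts under the WT label. It had 91.6, 111 and 87.2 under the Dab2-cKO label. The groups were well apart, with a log2 fold change of −1.99 (SE 0.13, edgeR adjusted p = 1.38e-22). Genes on the opposite strand (Cdk2 and Dgka) overlap 20.8% of its exon bases, and the strand setting of the counting is not given in the sources used here, so reads of these bases cannot be told apart.

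Mlana, a small melanosome protein that works with Pmel in early melanosomes (chromosome 19, 29674900 to 29686034), had 140, 231 and 217 normalized counts under the WT label and 44.8, 28.8 and 33.1 under the Dab2-cKO label. Replicate 1 labelled WT was the lowest of its group and still lay above all those labelled Dab2-cKO. As counted, the log2 fold change was −2.45 (SE 0.19, edgeR adjusted p = 3.94e-18), and −2.67 as the ratio of the means less an even background.

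The 2 transporters of the list keep the inside of the melanosome fit for tyrosinase. Oca2, an anion channel protein of the melanosome (chromosome 7, 55889191 to 56186280), had 98.0, 163 and 149 normalized counts under the WT label and 42.0, 43.7 and 70.6 under the Dab2-cKO label. Its libraries varied most, with coefficients of variation of 25.1% and 30.8%, yet the groups stayed apart. As counted, its log2 fold change was −1.41 (SE 0.20, edgeR adjusted p = 9.89e-09), close to that of Dct, and the order of the pair turned without WT replicate 1 (−1.58 for Oca2 and −1.53 for Dct) or without Dab2-cKO replicate 3 (−1.70 for Oca2 and −1.53 for Dct).

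Slc45a2, a melanosome transporter whose loss gives pale coats (chromosome 15, 11000803 to 11029319), had 146, 148 and 121 normalized counts under the WT label and 30.5, 40.3 and 29.8 under the Dab2-cKO label. All libraries of the second group were lower, with a log2 fold change of −2.05 (SE 0.20, edgeR adjusted p = 8.51e-14). Less an even background, the log2 ratios of the means were −2.68 for Slc45a2, next to that of Mlana, and −1.87 for Oca2, beyond the −1.55 of Dct.

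Of the regulators, Mitf (chromosome 6, 97783950 to 97998323) had 648, 769 and 699 normalized counts under the WT label. It had 361, 335 and 387 under the Dab2-cKO label. The groups were apart by more than their spread, with a log2 fold change of −0.97 (SE 0.09, edgeR adjusted p = 3.46e-15) that left 51.2% of the WT level. The gene has several promoters and 18 annotated transcripts, among them the melanocyte form with a promoter of its own, and the counts pool them.

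Kit (chromosome 5, 75735576 to 75817404) had 313, 330 and 352 normalized counts under the WT label and 154, 159 and 164 under the Dab2-cKO label. The replicates lay closer together than those of most pigment genes and the groups did not overlap. The log2 fold change was −1.06 (SE 0.12, edgeR adjusted p = 2.95e-12), which left 47.9% of the WT level. Kit counts per Mitf count were 0.483, 0.430 and 0.504 under the WT label and 0.425, 0.474 and 0.425 under the Dab2-cKO label, which overlap. Kit is also the defining receptor of mast cells, which express Mitf as well. Of 12 mast cell markers 8 were higher under the Dab2-cKO label, 1 lower and 3 not called. With library size only, 6 were higher and 2 lower. Their summed level was 553 to 584 normalized counts under the WT label and 1538 to 1607 under the Dab2-cKO label. None of the 12 was at 0 in any library, but only 4 were above the receptors' 95th percentile per kb under the WT label. Under the Dab2-cKO label 10 were above it. Cpa3, a mast cell protease, had a log2 fold change of 2.48 (SE 0.15, edgeR adjusted p = 1.20e-23). The part of mast cells in the Kit and Mitf counts was not tested.

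Sox10 (chromosome 15, 79039108 to 79049469) had 107, 94.8 and 103 normalized counts under the WT label and 106, 120 and 96.0 under the Dab2-cKO label. The ranges overlapped. The log2 fold change was 0.08 (SE 0.17, edgeR adjusted p = 0.798), and an exact two-sided permutation test over the 6 libraries gave p = 0.5, where 0.1 is the smallest it can give. The sign turned with the scaling, to −0.06 with upper-quartile factors and −0.35 with library size only, and neither was called. Sox10 also marks Schwann cells, the glia of skin nerves. Of 12 Schwann cell markers 8 were higher under the Dab2-cKO label, 0 lower and 4 not called. With upper-quartile scaling 7 were higher and 1 lower, and with library size only 6 were higher and 2 lower. Their summed level was 1387 to 1680 normalized counts under the WT label and 3511 to 3689 under the Dab2-cKO label. None was at 0, and 9 were above the receptors' 95th percentile per kb under the WT label and 10 under the Dab2-cKO label. The part of Schwann cells in the Sox10 counts was not tested.

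**Figure D2:**
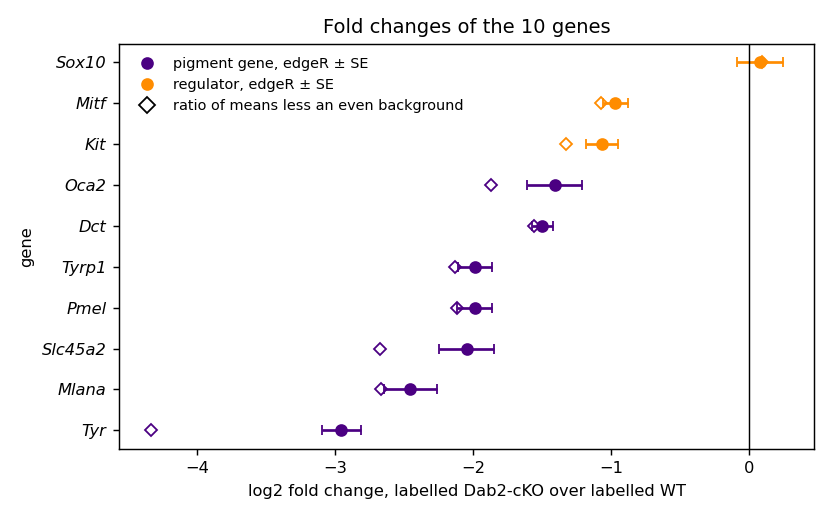
Log2 fold changes of the 10 genes, labelled Dab2-cKO over labelled WT, as filled points with the SE of the edgeR fit, and open diamonds for the ratio of the means less an even background. The 7 pigment genes lie between −2.96 and −1.41, Kit and Mitf near −1 and Sox10 at 0.08, whose sign turned with the scaling; the diamond of Tyr is at −4.34.

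Pigment genes and regulators were then set against each other within each library, where the scaling of the library drops out. The 7 pigment genes summed to 2839, 3130 and 2974 normalized counts under the WT label and to 810, 863 and 832 under the Dab2-cKO label. The 3 regulators summed to 1068, 1194 and 1153 in the former and 621, 613 and 648 in the latter. Pigment gene counts per regulator count were thus 2.66, 2.62 and 2.58 in WT and 1.30, 1.41 and 1.28 in Dab2-cKO. On the log2 scale the ratio was 1.39 ± 0.02 against 0.41 ± 0.07 (SD, n = 3 each), a difference of −0.98 that exceeded the spread between libraries in both groups. No test was made of this score. Mast cells express Kit and Mitf and Schwann cells express Sox10, and their part in the regulator counts was not tested. With the mean of the log2 values in place of the sums, which gives each gene the same weight, the difference was −1.39.

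Taken gene by gene, 19 of the 21 pairs of a pigment gene and a regulator had a lower ratio in all libraries labelled Dab2-cKO than in any labelled WT. This held for 7 of 7 pairs with Sox10, 6 of 7 with Mitf and 6 of 7 with Kit. The share of all genes with such a ratio was not computed. The levels of single genes were lower in this way for 17.7% of all genes tested. Sox10 itself overlapped between the labels, so its pairs largely repeat the comparison of the pigment genes alone. The exceptions were Oca2 over Mitf (exact permutation p = 0.2) and Oca2 over Kit (exact permutation p = 0.3), while the others had p = 0.1 by the exact permutation test, the smallest that 3 against 3 libraries allow. Adjusted over the 21 pairs by Benjamini-Hochberg, these exact values became 0.21, 0.3 and 0.111, so no pair could pass a threshold of 0.05. Tyr counts per Sox10 count were 3.75, 4.27 and 4.04 under the WT label and 0.523, 0.308 and 0.667 under the Dab2-cKO label. Dct counts per Mitf count moved least among the 3 enzymes, from 1.86, 1.78 and 1.79 to 1.19, 1.40 and 1.18, again without overlap. Because the pairs share genes, they are not independent of each other.

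**Figure D3:**
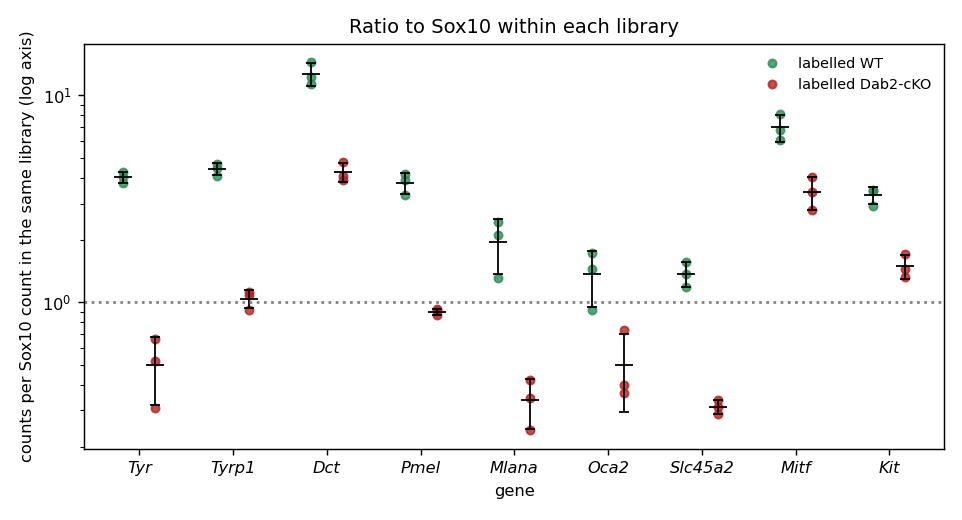
Counts of each gene per Sox10 count in the same library (log axis), libraries labelled WT in green and labelled Dab2-cKO in red, with the mean ± SD and a dotted line at equal counts. All 9 genes had lower ratios in the red libraries, with Tyr between 0.308 and 0.667 there against 3.75 to 4.27 in the green ones.

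The make-up of the pigment gene counts changed along with their sum. Dct held 42.5%, 43.7% and 42.2% of the summed counts under the WT label and 53.2%, 54.3% and 55.2% under the Dab2-cKO label. Tyr held 14.1%, 12.9% and 13.9% in the former and 6.83%, 4.27% and 7.69% in the latter. The shares of the other 5 genes, Tyrp1, Pmel, Mlana, Oca2 and Slc45a2, overlapped between the groups.

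**Figure D4:**
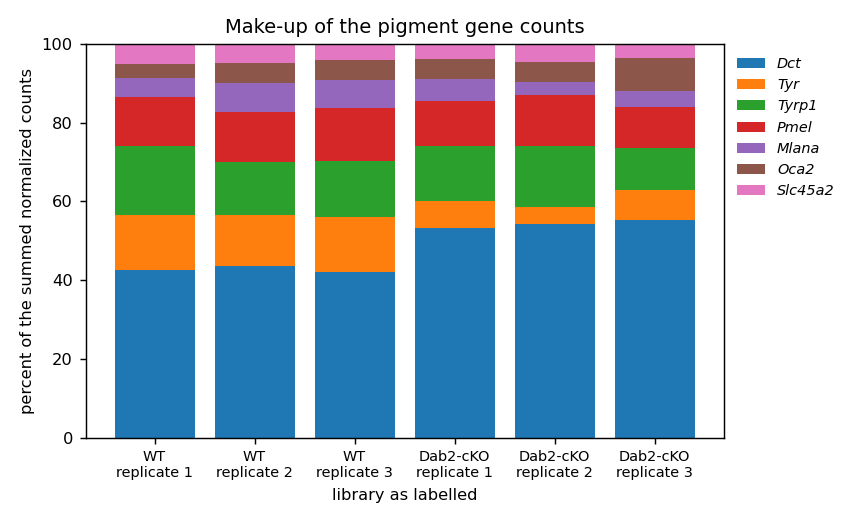
Stacked shares (percent) of the 7 pigment genes in their summed normalized counts, one bar per library. The share of Dct is 42.2% to 43.7% under the WT label and 53.2% to 55.2% under the Dab2-cKO label, and that of Tyr is smaller in the latter.

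The order of the levels per kb of exon also differed. In the libraries labelled WT, Dct led with 216 normalized counts per kb, followed by Mlana (168), Pmel (166) and Tyrp1 (158), whose values overlapped. Mitf (69.5), Tyr (57.2) and Slc45a2 (46.3) came next, each apart from its neighbours, and Kit (35.03), Oca2 (31.7) and Sox10 (30.4) closed the list with values that overlapped between neighbours. In the libraries labelled Dab2-cKO, Dct was again first (76.8), and Pmel (42.1), Tyrp1 (39.8), Mitf (35.6), Sox10 (32.2) and Mlana (30.4) formed a run in which each overlapped the next. Kit (16.8), Oca2 (12.1) and Slc45a2 (11.2) overlapped as neighbours, and Tyr was last (7.32), apart from Slc45a2. These last 2 lay below the receptors' 95th percentile.

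Other genes of the pathway came from 4 lists of melanosome proteins, melanosome transport, melanocyte lineage and niche signals, 60 genes of which 59 were tested. Of these 27 were lower, 15 higher and 17 not called, with a median log2 fold change of −0.16. Without the TMM factors the calls shifted, as 9 were higher with upper-quartile scaling and 5 with library size only. Over all genes tested, 40.6% of the calls were lower, against 56.5% and 80.6% under these scalings, and the median log2 fold change of all genes was −0.02, −0.17 and −0.45 in turn.

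Of the 14 melanosome genes 10 were lower, 3 higher and 1 not called, with a median of −0.95. Gpnmb, a melanosome glycoprotein related to Pmel, had 1586, 1801 and 1666 normalized counts under the WT label and 273, 326 and 391 under the Dab2-cKO label, without overlap, and a log2 fold change of −2.36 (SE 0.09, edgeR adjusted p = 1.75e-35). Slc7a11, the cystine transporter needed for yellow pigment, had a log2 fold change of −2.07 and Atp7a, which brings copper to tyrosinase, one of −0.65. Picked after their values were seen, Mc1r, the receptor that steers pigment type, had −2.17, the channel Trpm1 −2.03 and the melanosome exchanger Slc24a5 −1.92, all called. Against these, Cd63, a tetraspanin of lysosomes and melanosomes in many cell types, was higher (470 ± 9.24 against 872 ± 4.10 normalized counts, log2 fold change 0.89). So was Rab27a, a small GTPase of organelle transport (0.69), whose call was lost with library size only. Several low sides lay near the background. Under the Dab2-cKO label Mc1r (3.73 normalized counts per kb) and Slc24a5 (4.25) were below the receptor median of 4.90. Slc7a11 (5.36) and Trpm1 (10.3) were below the receptors' 95th percentile of 11.7. All 14 genes were above that percentile under the WT label and 7 under the Dab2-cKO label.

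Of the 18 transport genes, most of which serve lysosome-related organelles in other cells too, 4 were lower, 7 higher and 7 not called. The lower ones included the myosin Myo10 (−0.90), the adaptor Mlph (−0.64) and the motor Myo5a (−0.61). Mlph and Myo5a move melanosomes to the cell edge. Rab27a, counted among the melanosome genes, was higher (0.69). Bloc1s6 (0.45) and Dtnbp1 (0.43), subunits of the complex that sorts cargo to the organelle, were called higher, but both calls were lost with upper-quartile scaling and with library size only, where the sign of Dtnbp1 turned. The call of Bloc1s6 was also lost with DESeq2, without WT replicate 1 and without Dab2-cKO replicate 2. With library size only the list had 10 lower and 0 higher. Lyst, a regulator of lysosome size, was not called (−0.09).

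Of the 12 lineage genes 5 were lower, 1 higher and 6 not called. Tfap2a, a transcription factor that works with Mitf and is also active in keratinocytes, had 817, 807 and 764 normalized counts under the WT label and 319, 297 and 333 under the Dab2-cKO label, a log2 fold change of −1.33 (SE 0.09, edgeR adjusted p = 5.07e-22). Sox5 (−1.08), a modulator of Sox10 activity, and Erbb3 (−0.62), a neuregulin receptor of neural crest cells, were lower as well. Zeb2, a transcription factor found in melanocytes and in many stromal and immune cells, was higher, with a log2 fold change of 1.67.

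Among the 15 niche genes tested, those of the cells around the melanocytes, 8 were lower, 4 higher and 3 not called. Kitl, the ligand of Kit, had 635, 682 and 657 normalized counts under the WT label and 498, 567 and 488 under the Dab2-cKO label, a log2 fold change of −0.35 (SE 0.08, edgeR adjusted p = 0.000497). Foxn1, a keratinocyte factor of the hair that also marks the cells receiving pigment, fell furthest, from 537 ± 54.7 to 63.8 ± 12.2 normalized counts (log2 fold change −3.08). Corin (−1.05), a protease of the dermal papilla that acts on coat colour, and Nfib (−0.43), a transcription factor of HFSCs, were lower. Tgfb2 (1.32), a ligand that keeps melanocyte stem cells at rest, and Col17a1 (1.01), the HFSC collagen that anchors the niche, were higher.

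**Figure D5:**
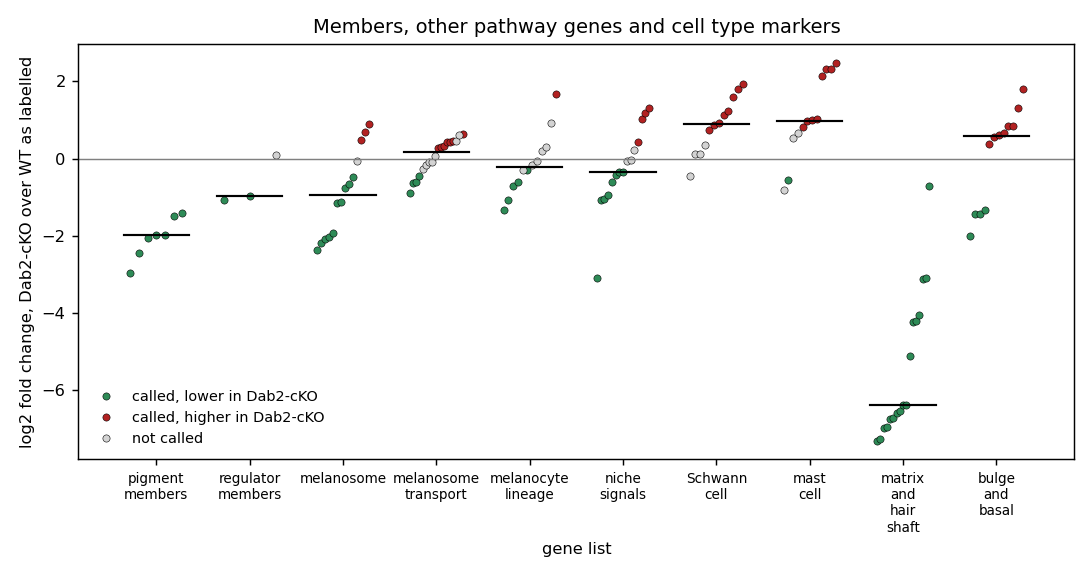
Log2 fold changes, labelled Dab2-cKO over labelled WT, of the pigment genes, the regulators, the 4 pathway lists and the 4 lists of cell type markers; green points were called lower, red points called higher, grey points not called, and black lines are medians. The medians run from −6.39 for the matrix and hair shaft list to 0.98 for the mast cell list, with −1.99 for the pigment genes.

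Markers of the matrix and hair shaft were lower together with the melanocyte genes, while most of a mixed list of bulge and basal markers were higher. All 17 tested genes of the matrix and hair shaft were lower under the Dab2-cKO label with a median log2 fold change of −6.39. Their summed level was 235100 to 282400 normalized counts under the WT label and 3479 to 3511 under the Dab2-cKO label, and Krt31, a hair keratin, fell by 7.30 on the log2 scale. Of the 12 bulge and basal genes that mark the sorted cells, 8 were higher and 4 lower. With library size only, 6 were higher and 4 lower. Their summed levels were 21160 to 24240 normalized counts under the WT label and 35820 to 36640 under the Dab2-cKO label. Cd34, used in the sort, had a log2 fold change of 1.80 and Krt14 one of 0.85, whereas Sox9 (−1.45) and Tbx1 (−1.99) were lower. None of these markers was at 0 in any library. The study staged both genotypes as resting, yet these matrix and hair shaft markers differed widely between the labels. Whether the follicles sampled were at the same stage was not tested. The part of matrix cells in the pigment gene result was not tested either. The 7 pigment genes made up 362 to 366 CPM (counts scaled to a fixed library total) under the WT label and 72.6 to 80.0 CPM under the Dab2-cKO label.

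The total count per library was 7040032 to 9518564 for the libraries labelled WT and 9374373 to 11696457 for those labelled Dab2-cKO, and the 10 genes had between 25 and 1514 counts in a library. The TMM factors separated the genotypes, being 1.11 to 1.21 for WT and 0.847 to 0.876 for Dab2-cKO.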

How the data were processed

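Total RNA of sorted HFSCs was sequenced by the authors after library preparation with a SMARTer Stranded pico kit from 5 ng of RNA. Per the labels and the paper's methods, the authors trimmed reads with fastp 0.23.4, aligned them to GRCm39 with HISAT2 2.2.1 and SAMtools 1.6, and counted them per gene with featureCounts 2.0.6. The deposited table holds these counts per gene, not normalized. The authors' own DESeq2 table (fold changes, p-values and counts divided by size factors) was not used.

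Library groups came from the sample labels. Genes were filtered with filterByExpr, scaled by TMM and compared with the quasi-likelihood test of edgeR 4.0.16 (R 4.3.3) with robust dispersions, and p-values were adjusted by Benjamini-Hochberg over all genes tested. A gene with an adjusted p under 0.05 was called. To obtain normalized counts, each count was divided by its library's TMM-adjusted size and multiplied by the average of the 6 adjusted sizes. SE is that of the log2 fold change. Only the main edgeR fit was tested on simulated counts, with known changes balanced between rises and falls. That simulation does not bear on the choice of scaling. Exon lengths and coordinates came from GENCODE (56323 of 56941 gene identifiers matched). The even background is the median per kb of the receptor genes times the exon length. Where it was taken off, the receptor median of each library (4.52 to 5.14 per kb) was used.

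The members and lists were chosen with earlier results of these data known. All 10 members were named, and open to naming were, from each list, the 2 largest called rises and falls among genes averaging 100 or more normalized counts, together with up to 3 of the most abundant genes. A listed gene is not reported here. Alternatives were DESeq2 1.42.0, upper-quartile scaling, library size only, TMM without mitochondrial and the 100 most abundant genes, no filter, a filter at an average of 50 counts, the replicate number as a block, each library left out, an even background taken off and, for the ratio of pigment genes to regulators, the mean of log2 values.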

Additional observations from a re-analysis of the deposited data

How the results depend on the processing

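The 9 calls among the 10 genes remained in number under all 13 alternatives with a test, 9 lower and 0 higher each time, leaving out any single library included. The log2 fold change of Tyr ranged from −3.14 to −2.80 with a library left out, that of Dct from −1.55 to −1.43, that of Mitf from −1.04 to −0.89 and that of Kit from −1.11 to −1.01. Sox10 turned its sign to −0.063 under upper-quartile factors, −0.35 under library size only, −0.0061 with genes averaging under 50 counts left out, and −0.029 when Dab2-cKO replicate 2 was omitted (−0.029 to 0.13 over the omitted libraries), and it was never called (edgeR or DESeq2 adjusted p from 0.0933 to 0.978). With library size only, 13854 genes were called in place of 9069, and the pathway lists had 5 genes called higher, against 9 with upper-quartile scaling and 15 with TMM. Taking off an even background moved the log2 ratio of Kit to −1.33, of Oca2 to −1.87, of Slc45a2 to −2.68 and of Tyr to −4.34. The mean of log2 values moved the ratio of pigment genes to regulators to −1.39 from −0.98. The causes were not tested. The replicate numbers did not pair the libraries, since the deviations of same-numbered libraries correlated at 0.008 to 0.023, although each library correlated best with its own number. With the replicate block 9 of the 10 genes were called lower and 8967 genes in all, 3620 lower and 5347 higher. Depth limits Tyr in the libraries labelled Dab2-cKO, where 32 to 58 counts lie near the background. Slc45a2, with 27 to 35 counts there, and Mlana, with 25 to 47, were counted as thinly.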

Other observations

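As a description over the 6 libraries and 10841 genes averaging 100 or more normalized counts, the log2 CPM of 414 genes had a Pearson correlation of at least 0.99 with the summed pigment genes. The 5 most alike were Prr9, Cpm, Hist1h1b, Krt35 (each 0.9997) and Wnt5a (0.9996). Krt35, a keratin of the hair shaft, averaged 2616 normalized counts under the WT label and 31.3 under the Dab2-cKO label. Wnt5a, a secreted Wnt ligand, averaged 735 and 220, a log2 fold change of −1.74. The 6 points fall into the 2 genotypes, so any gene with a large difference between them scores high.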
